A study of Mus musculus with 4 samples.

Results

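Norrin, encoded by Ndp, its receptor genes Fzd4, Lrp5, Lrp6 and Tspan12, the signal carrier Ctnnb1 (beta-catenin), and the WNT7 co-receptor genes Gpr124 and Reck were followed in the retina of postnatal mice. These 8 genes were taken by symbol from the 23278 genes of the deposited expression table. All 8 were among the 13150 genes that had a mean of at least 1 FPKM (fragments scaled to transcript length and to the size of the library) and a usable estimate in every library. They were grouped by their place in the pathway, with earlier results of these data known.

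Norrin is a secreted protein that is not a WNT but binds Frizzled4. It signals through a complex of Frizzled4 with the co-receptors LRP5 or LRP6 and the tetraspanin TSPAN12, mainly in endothelial cells. The signal stops the destruction of beta-catenin, which then enters the nucleus and acts with TCF and LEF factors. Without it, retinal vessels grow poorly and their barrier is weak. GPR124 and RECK form a co-receptor pair for WNT7 ligands in brain vessels, where WNT7 feeds into the same beta-catenin pathway.

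The study measured total RNA of whole retinas at postnatal day 10. It had 4 genotypes on a mixed background with at least C57BL6 and 129 ancestry: WT, NdpKO, Ctnnb1flex3/+;Pdgfb-CreER (the stabilized library) and NdpKO;Ctnnb1flex3/+;Pdgfb-CreER (the stabilized knockout library, which the submitters call a rescue). All groups, WT included, were injected in the abdomen at postnatal day 3 with 20 ug of 4HT, a tamoxifen metabolite that activates CreER. In the flex3 allele exon 3 of Ctnnb1 is flanked by Cre target sites. Pdgfb-CreER is a tamoxifen-activated Cre under the promoter of Pdgfb, which is active in endothelial cells, and these are a small part of the cells of a whole retina. Ctnnb1flex3/+ mice carry 1 copy of the allele beside 1 normal copy. RNA of 3 batches per genotype, each from 4 to 8 retinas of 2 to 4 mice, was pooled into 1 library.

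With 1 library per genotype no comparison has a spread between replicates and none was tested. Each gene is given with the interval deposited beside its FPKM, and what level of confidence that interval stands for was not stated in the labels or the table. Log2 ratios are of FPKM plus 0.5, which understates the change of low genes, and a gene is said to be apart at 1.5-fold. The FPKM of all genes summed to between 405525 and 427109 in the 4 libraries. Relative depth, read from steps in the deposited intervals, was about 0.536 in NdpKO, 0.426 in the stabilized and 0.577 in the stabilized knockout library, with WT as 1. At the same FPKM the intervals were nevertheless about equally wide in all 4 libraries, so those of the shallower 3 libraries carry no sign of their lower depth. Retinal tissue was evident from 17 of 17 neuron markers tested, whose summed level lay between 3155 and 3516 FPKM, and from the Muller glia gene Rlbp1 at 157 to 177 FPKM. Xist, the RNA that silences an X chromosome in females, was at 135 FPKM in WT and 130 FPKM in the stabilized library but at 1.25 FPKM in NdpKO and 1.28 FPKM in the stabilized knockout library. Ddx3y, a gene of the Y chromosome, was at 0.0896 and 0.173 FPKM in the first pair and at 18.7 and 20.1 FPKM in the second. Each contrast of Ndp genotype is thus also a contrast between female and male pools, and the effects of Ndp and of sex cannot be told apart here. The labels of WT and NdpKO name neither the flex3 allele nor Pdgfb-CreER. Each stabilization contrast is therefore also a contrast of the Cre transgene, and the effects of stabilization and of Cre cannot be told apart.

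The stabilizing allele is shown by the exon that it loses, since every result on beta-catenin turns on it. Ctnnb1 lies on the plus strand of chromosome 9, from 120929216 to 120960507 of the mm10 build, per GENCODE M21. Its principal transcript has 15 exons and 3623 bases. Exon 3, at chr9:120950522-120950749, holds 228 bases, all coding, or 6.29% of the transcript. Their number is that of 76 codons with 0 bases over, so that the reading frame is kept when the exon is removed. The exon begins and ends inside a codon and touches residues 5 to 81. The capitals mark the codons of residues 32 to 37, the DSGxxS motif whose phosphorylated serines are read by the ubiquitin ligase that sends beta-catenin to the proteasome.

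Ctnnb1 exon 3: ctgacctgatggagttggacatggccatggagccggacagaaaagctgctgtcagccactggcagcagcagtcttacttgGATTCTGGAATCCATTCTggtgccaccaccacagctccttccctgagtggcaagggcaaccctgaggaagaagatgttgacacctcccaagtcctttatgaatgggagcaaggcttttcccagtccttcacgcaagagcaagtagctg

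The motif occupies bases 81 to 98 of this exon, counted from its 5′ end. The table holds a single FPKM per gene and none per exon, so neither the share of Ctnnb1 transcripts without exon 3 nor the share of recombined cells was measured here.

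**Figure D1:**
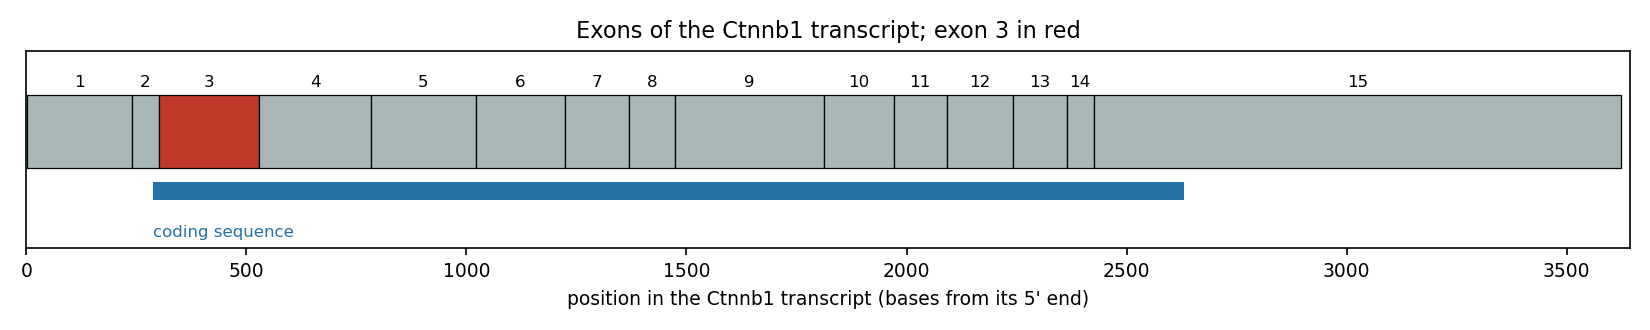
The exons of the principal Ctnnb1 transcript are drawn to scale along the transcript, in bases from its 5' end, with the coding sequence as a blue bar below them. Exon 3, in red, lies near the start of the coding sequence and takes up 228 of 3623 bases.

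Ndp was the only gene of the 8 that was at least 1.5-fold apart in any comparison. It is on the minus strand of the X chromosome, from 16885521 to 16911774, and its transcript has 3 exons, of which 2 are coding. In WT it was listed at 2.98 FPKM (interval 2.17 to 3.80) and in NdpKO at 0.873 FPKM (0.561 to 1.19). In the stabilized library it was 2.35 FPKM (1.68 to 3.02) and in the stabilized knockout library 0.869 FPKM (0.557 to 1.18). Both libraries with a functional Ndp gene were high and both knockout libraries low, and the intervals of these pairs did not overlap.

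NdpKO had 0.293 times the Ndp FPKM of WT, with an interval of 0.187 to 0.459 when both deposited intervals are combined in quadrature on the log scale. The log2 ratio was -1.34. The stabilized knockout library had 0.370 times that of the stabilized library (0.234 to 0.585), a log2 ratio of -1.06. The pairs share no library, and Ndp was apart in the same direction in both. Set against WT directly, the stabilized knockout library gave a log2 ratio of -1.35. Among all tested genes 2.18% were at least 1.5-fold apart between NdpKO and WT, 1.67% between the stabilized knockout and stabilized libraries, 2.87% between the stabilized knockout library and WT, and 0.532% in the same direction in both Ndp pairs. Ndp thus belonged to a small share of genes in each case, but a lower level of the targeted gene is what the genotype labels state, so it serves as a check of the labels. Both knockout values were below 1 FPKM, and Ndp reached the minimum mean through the other 2 libraries.

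Signal for Ndp remained in both knockout libraries, at 0.873 and 0.869 FPKM, with lower bounds above 0. The ratio of one knockout library to the other was 0.995 (0.600 to 1.65). The table does not show over which exons the remaining fragments lay. The labels do not say which part of the gene the knockout allele lacks.

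Between libraries that differ by stabilization and Cre, the intervals of Ndp overlapped. The stabilized library had 0.788 times the Ndp FPKM of WT (0.530 to 1.17), a log2 ratio of -0.29. A 1.5-fold fall lies within this interval. In the knockout background the log2 ratio was -0.00, but both values there were the remaining signal of the targeted gene, below 1 FPKM.

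**Figure D2:**
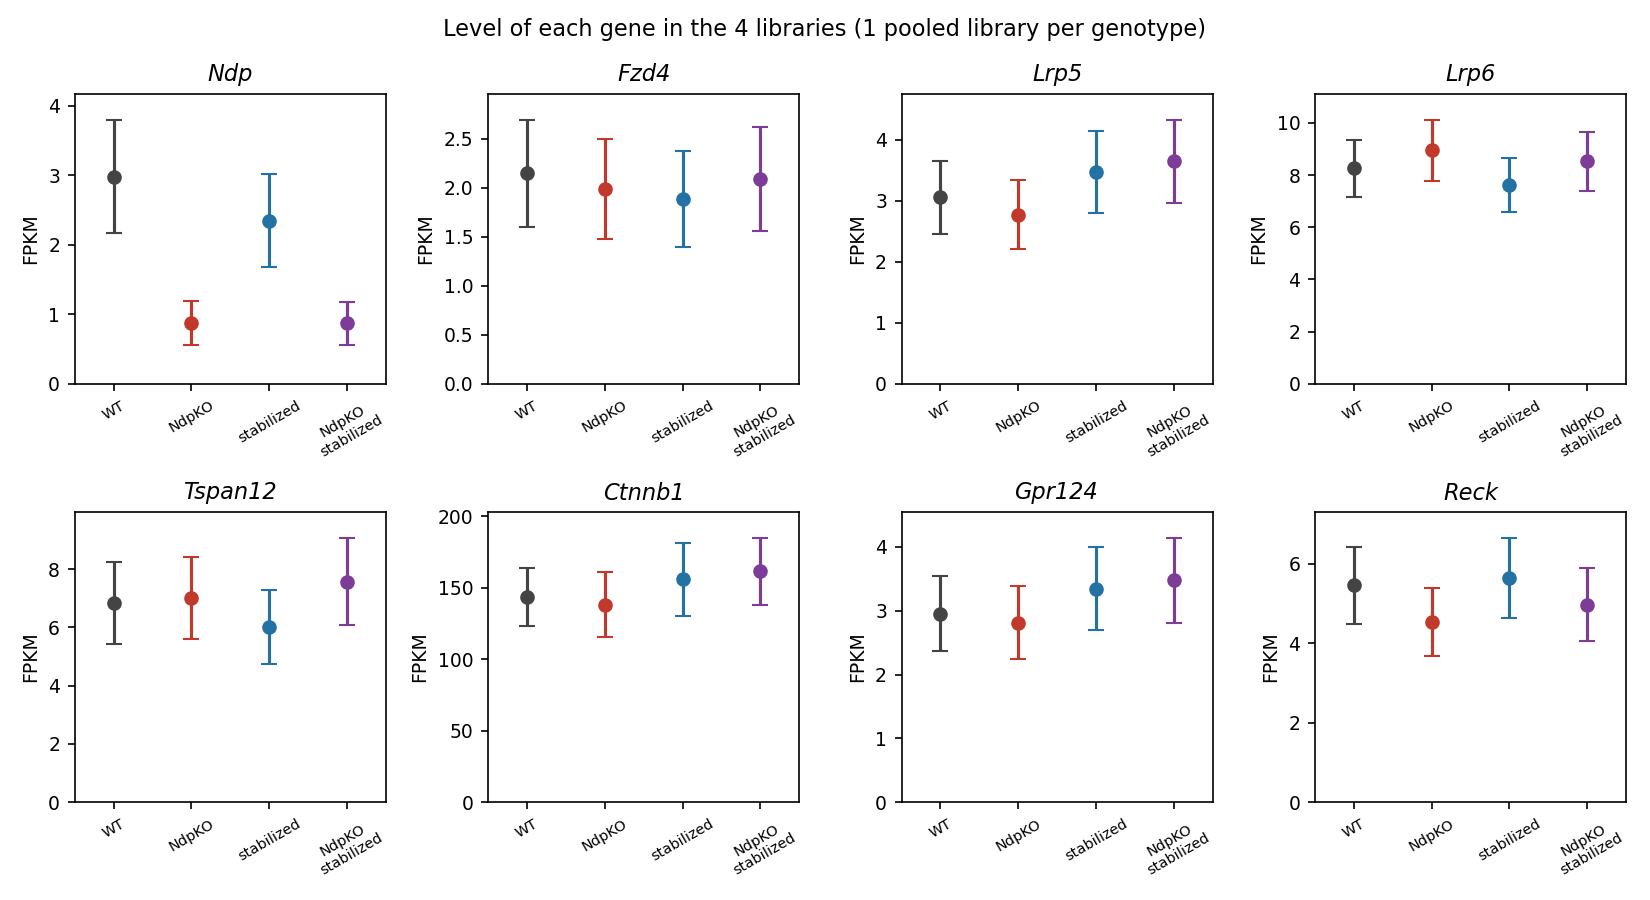
Each panel gives the level of 1 gene in FPKM on an axis that starts at 0, with points for the WT, NdpKO, stabilized and stabilized knockout libraries and bars for the deposited intervals. Ndp is at 2.98 and 2.35 FPKM in the WT and stabilized libraries and at 0.873 and 0.869 FPKM in the knockout libraries, while the intervals of each of the other 7 genes overlap in every pair of libraries compared.

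In none of the 5 comparisons was any of the 7 genes other than Ndp 1.5-fold apart, and in none did their intervals separate. Their log2 ratios ran from -0.24 to 0.11 between NdpKO and WT and from -0.17 to 0.31 between the stabilized knockout and stabilized libraries. In these same comparisons 0.76% and 0.525% of all tested genes had separate intervals. A count of 0 of 7 is near backgrounds this low and says nothing particular about these genes.

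Fzd4, the Norrin receptor, is on the plus strand of chromosome 7, from 89404355 to 89413134. Its level was 2.15 FPKM in WT (1.60 to 2.69), 1.99 in NdpKO (1.48 to 2.50), 1.89 in the stabilized library (1.40 to 2.38) and 2.09 in the stabilized knockout library (1.56 to 2.62). No library stood apart. The ratio of NdpKO to WT was 0.925 (0.645 to 1.33) and that of the stabilized knockout to the stabilized library 1.11 (0.769 to 1.59). Ratios for stabilization were 0.879 (0.611 to 1.26) with Ndp intact and 1.05 (0.732 to 1.51) without it. A 1.5-fold fall of Fzd4 lies within the intervals of the ratios 0.925 and 0.879, and a 1.5-fold rise within those of 1.11 and 1.05. Since the level of the intervals is not known, what size of change could have been detected was not settled.

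Fzd4 was a minor Frizzled of the whole retina by this measure. It took 6.73% of the summed FPKM of the 10 Frizzled genes in WT, 6.48% in NdpKO, 5.94% in the stabilized and 6.35% in the stabilized knockout library. By FPKM, which is scaled to length, it stood in place 6, 6, 7 and 7 of 10. Fzd5 was the most abundant, with 10.3 to 10.6 FPKM in every library, followed by Fzd3 with 4.98 to 5.83 FPKM. Fzd1, Fzd2, Fzd7, Fzd8 and Fzd10 lay between 1.20 and 3.66 FPKM. Fzd9, listed between 0.579 and 1.15 FPKM, had a mean under 1 FPKM and was not tested.

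Among the 8 other Frizzled genes tested, Fzd6 was the single one apart. Its level was 1.91 FPKM in WT (1.38 to 2.45), 1.09 in NdpKO (0.777 to 1.40), 2.16 in the stabilized library (1.52 to 2.81) and 2.10 in the stabilized knockout library (1.57 to 2.62). It was low in NdpKO alone. The log2 ratio was -0.60 against WT, with overlapping intervals, and 0.71 for the stabilized knockout library against NdpKO, with intervals apart. With a pseudocount of 1 both ratios were below 1.5-fold, and so was the first after re-centring on the median.

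**Figure D3:**
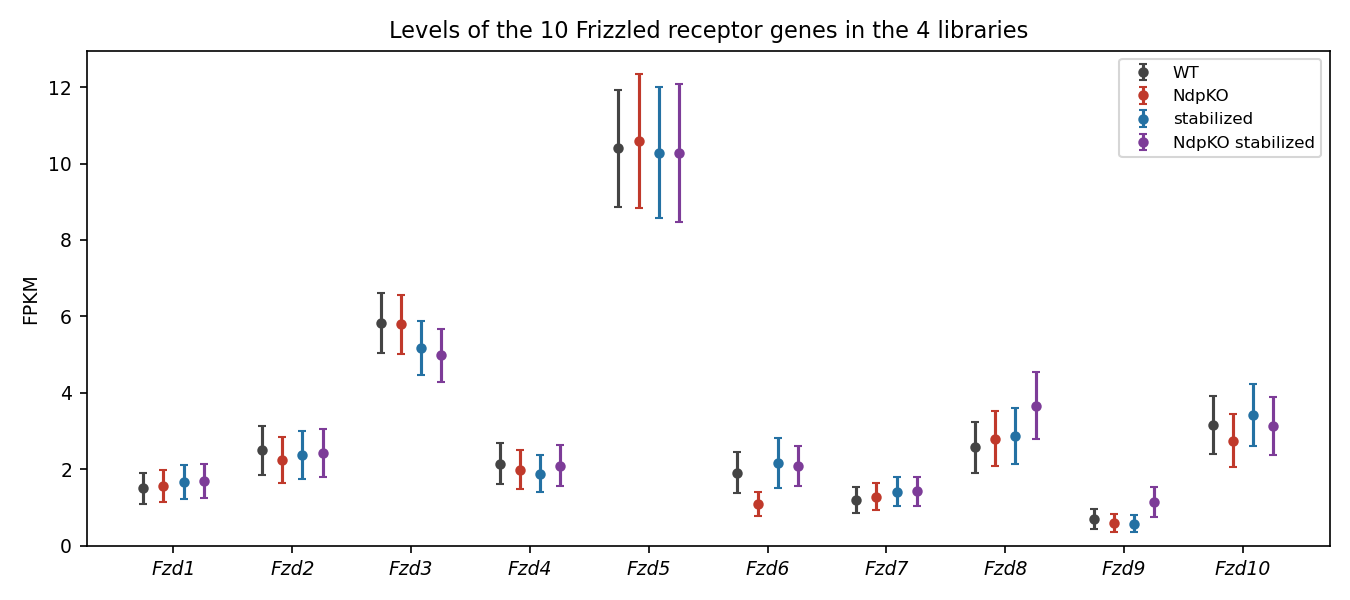
Levels in FPKM of the 10 Frizzled receptor genes are shown from 0, with 1 point per library (WT, NdpKO, stabilized, stabilized knockout) and the deposited interval as a bar. Fzd5 is highest at 10.3 to 10.6 FPKM, Fzd4 sits near 2 FPKM in all 4 libraries, and Fzd6 is lower in NdpKO than in the others.

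Lrp5 and Lrp6 encode closely related co-receptors that both serve Norrin and WNT signals. Lrp5 is on chromosome 19, from 3584828 to 3686564 on the minus strand. It was at 3.06 FPKM in WT (2.46 to 3.65), 2.78 in NdpKO (2.21 to 3.34), 3.47 in the stabilized library (2.80 to 4.14) and 3.65 in the stabilized knockout library (2.97 to 4.33). Both stabilized libraries had the higher values, but all intervals overlapped. The stabilized library had 1.14 times the level of WT (0.864 to 1.49). The stabilized knockout library had 1.31 times that of NdpKO (0.996 to 1.73), a log2 ratio of 0.34. That was the widest difference found among the 7 genes in any of the 5 comparisons, and it stayed below 1.5-fold.

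Lrp6 is on chromosome 6, from 134446476 to 134566965 on the minus strand. It was at 8.26 FPKM in WT (7.16 to 9.36), 8.94 in NdpKO (7.77 to 10.1), 7.62 in the stabilized library (6.60 to 8.64) and 8.53 in the stabilized knockout library (7.40 to 9.65). The highest and lowest libraries differed 1.17-fold. Its intervals were the narrowest of the 8 genes, 13.1% to 13.4% of the value on each side. For NdpKO against WT the ratio was 1.08 (0.898 to 1.30), and for the stabilized library against WT 0.922 (0.764 to 1.11).

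Lrp6 was the more abundant co-receptor in every library. It exceeded Lrp5 by 2.70-fold in WT and 3.22-fold in NdpKO, and by 2.19-fold and 2.34-fold in the stabilized and stabilized knockout libraries. The ratio was lower in both stabilized libraries than in their controls, a difference that was not tested. The summed FPKM of the pair stayed between 11.1 and 12.2. Among 11 other members of the LDL receptor family, 10 were tested and 0 were 1.5-fold apart in any comparison. Over all tested genes the share was also low, 1.67% to 3.38%. The most abundant of them was Lrp4, at 35.9 to 45.2 FPKM.

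Tspan12, which promotes Norrin signalling through Frizzled4, is on chromosome 6, from 21771395 to 21852515 on the minus strand. Its level was 6.83 FPKM in WT (5.43 to 8.24), 7.01 in NdpKO (5.60 to 8.42), 6.02 in the stabilized library (4.76 to 7.29) and 7.56 in the stabilized knockout library (6.07 to 9.06). The lowest and highest values both came from stabilized libraries, and their intervals overlapped. The ratio of the stabilized knockout to the stabilized library was 1.26 (0.941 to 1.67), and that of NdpKO to WT 1.03 (0.770 to 1.37). Ratios for stabilization were 0.881 (0.657 to 1.18) with Ndp intact and 1.08 (0.813 to 1.43) without it.

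Per length, Tspan12 RNA was more abundant than that of its partner receptor in all libraries, with 3.18, 3.53, 3.19 and 3.62 times the FPKM of Fzd4 in WT, NdpKO, stabilized and stabilized knockout. It ranked in place 16 or 17 among 27 tetraspanins, of which Tspan7 was the most abundant at 205 to 220 FPKM. Of the 26 other tetraspanins 19 were tested. Cd82 was the one apart, with 3.95 FPKM in WT and 6.45 FPKM in the stabilized library, a log2 ratio of 0.64 with overlapping intervals.

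The level of Ndp RNA beside that of Fzd4 RNA differed with Ndp genotype, and so with sex. As Fzd4 was not apart, this restates the lower Ndp of the knockout libraries and is no separate result. Norrin protein was not measured. Ndp had 1.39 times the FPKM of Fzd4 in WT and 1.24 times in the stabilized library, against 0.439 and 0.416 times in the 2 knockout libraries. The intervals of Ndp and Fzd4 overlapped in WT and in the stabilized library, whereas in both knockout libraries they were apart.

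Ctnnb1 was far more abundant than any of the other 7 genes. It had 144 FPKM in WT (123 to 164), 138 in NdpKO (116 to 161), 156 in the stabilized library (131 to 182) and 161 in the stabilized knockout library (138 to 185). All 4 intervals overlapped. It ranked between place 363 and 426 of the 13150 tested genes in the 4 libraries, within the top 3.24%. Beta-catenin also links cadherins to the cytoskeleton in most cell types, and its RNA in a whole retina cannot be assigned to vessels.

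The stabilized library had 1.09 times the Ctnnb1 FPKM of WT (0.875 to 1.35), and the stabilized knockout library 1.17 times that of NdpKO (0.940 to 1.45). The log2 ratios were 0.12 and 0.22, positive in both stabilization pairs. For Ndp genotype the ratios were 0.963 (0.776 to 1.19) and 1.03 (0.832 to 1.29). Among all tested genes 3.38% were 1.5-fold apart between the stabilized library and WT, 2.68% between the stabilized knockout library and NdpKO, and 1.03% in the same direction in both pairs. Separate intervals were found for 3.33% and 1.75% of genes in these pairs, and for 2.48% between the stabilized knockout library and WT. None of the 8 genes was among them in either stabilization pair. That count is near backgrounds this low and says nothing particular about these genes. Between the stabilized knockout library and WT, Ndp alone of the 8 had separate intervals. The allele acts on the stability of the protein, which RNA levels do not measure.

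Gpr124, named Adgra2 in GENCODE, is an adhesion receptor on chromosome 8, from 27085583 to 27123436 on the plus strand. Its level was 2.96 FPKM in WT (2.37 to 3.54), 2.81 in NdpKO (2.24 to 3.38), 3.34 in the stabilized library (2.69 to 3.99) and 3.47 in the stabilized knockout library (2.81 to 4.13). As for Lrp5, both stabilized libraries were the higher ones and all intervals overlapped. Ratios for stabilization were 1.13 (0.858 to 1.49) and 1.24 (0.936 to 1.63). Ratios for Ndp genotype were 0.950 (0.715 to 1.26) and 1.04 (0.792 to 1.36).

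Both relatives of Gpr124 were more abundant than it. Gpr123 had 5.26 to 6.38 FPKM and Gpr125 8.86 to 9.68 FPKM, and neither was 1.5-fold apart in any comparison. Gpr124 made up between 16.2% and 17.9% of the summed FPKM of the 3 genes, with the lowest share in NdpKO and the highest in the stabilized knockout library.

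Reck encodes a membrane-anchored protein that binds WNT7 and also inhibits matrix metalloproteases. It is on chromosome 4, from 43875530 to 43944806 on the plus strand. Its level was 5.46 FPKM in WT (4.49 to 6.43), 4.54 in NdpKO (3.69 to 5.39), 5.65 in the stabilized library (4.65 to 6.64) and 4.98 in the stabilized knockout library (4.07 to 5.89). Each knockout library was below its control, with ratios of 0.831 (0.642 to 1.08) and 0.882 (0.684 to 1.14). These intervals overlapped as well. Ratios for stabilization were 1.03 (0.805 to 1.33) and 1.10 (0.844 to 1.42). Gpr124 had 0.541, 0.618, 0.592 and 0.698 times the FPKM of Reck in WT, NdpKO, stabilized and stabilized knockout.

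The ligands that this co-receptor pair serves were scarcely detected in the retina. Wnt7a was listed at 0.0129 to 0.0513 FPKM and Wnt7b at 0.118 to 0.209 FPKM, below the minimum for testing. Of 19 WNT genes 3 were tested, none was apart, and Wnt2b had the highest mean, with 2.31 to 3.14 FPKM. Ndp in WT, at 2.98 FPKM, was therefore of a like level to the most abundant WNT gene.

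Within a library the order of the 8 genes was largely the same. Ctnnb1 stood first and was clear of all others, followed by Lrp6, Tspan12 and Reck in that order in each library. Lrp6 and Tspan12 overlapped in every library. Tspan12 and Reck overlapped in WT and the stabilized library but not in the knockout libraries. Lrp5 and Gpr124 came next with nearly equal values, at 3.06 and 2.96 FPKM in WT, and could not be separated in any library. The place of Ndp changed most: it was between Lrp5 and Gpr124 in WT and last in both knockout libraries, where it was also clear of Fzd4.

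The level of a gene in whole retina depends on how many cells express it as well as on the RNA in each, and fewer cells of a type and less RNA per cell cannot be told apart. Vessel markers differed between the libraries. Of 16 endothelial markers 11 were tested. In the stabilized library 5 were at least 1.5-fold above WT, and 8 were in the stabilized knockout library against NdpKO, with none lower. These are 45.5% and 72.7% of the tested markers, beside 3.38% and 2.68% of all genes in either direction. In each pair 1 of the higher markers, Tie1, reached the minimum mean only through the stabilized libraries. The median log2 ratios of the 11 markers were 0.53 and 0.86. For Ndp genotype none was apart, and the medians were 0.03 and 0.09. The summed FPKM of the 16 markers was 65.4 in WT, 64.3 in NdpKO, 92.2 in the stabilized and 94.8 in the stabilized knockout library, and no marker was listed at 0. Kdr was by far the largest part of each sum, with 39.0, 39.9, 47.7 and 45.7 FPKM, and was not apart. The sums thus follow Kdr more than any other marker. Emcn went the other way, with 1.69, 1.85, 1.21 and 1.41 FPKM. Mural cell markers, for the contractile cells that wrap vessels, gave sums of 23.7, 16.0, 37.6 and 35.6 FPKM over 10 genes in the same order. In the stabilization pairs 4 of the 6 tested mural markers were higher in each, but 3 of these 4 in each pair reached the minimum mean only through the stabilized libraries. Rgs5 was the largest part of the mural sums, with 17.6, 9.63, 25.0 and 21.7 FPKM. Its difference of WT and NdpKO exceeded that of the sums, while Acta2, Notch3 and Pdgfrb were listed higher in NdpKO than in WT and the median log2 ratio of the 6 between these libraries was 0.02. Astrocyte markers gave sums of 12.3, 15.6, 20.5 and 24.6 FPKM over 4 genes, higher with stabilization, as were the vessel marker sums. Between the libraries that differ by Ndp genotype, the astrocyte sum was higher in each knockout while the mural sum was lower in each. The mural sums of the stabilized and stabilized knockout libraries differed by less than their Rgs5 values did. Of the 6 tested mural markers only Acta2 was apart in that pair. Acta2 was higher in the stabilized knockout library, with 3.38 against 1.53 FPKM, a log2 ratio of 0.94 with intervals apart. Of 3 tested astrocyte markers, 2 were higher in the stabilized library against WT and 1 in the stabilized knockout library against NdpKO. Gfap was also higher in NdpKO than in WT, at a log2 ratio of 0.61.

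Single vessel genes set by the naming rule are given as examples and do not stand for the whole list. Pecam1, an endothelial adhesion molecule, had 1.93 FPKM in WT, 2.02 in NdpKO, 4.12 in the stabilized and 4.08 in the stabilized knockout library. Tie1, an endothelial receptor kinase, had 0.864, 0.643, 2.65 and 2.85 FPKM in that order, and reached the minimum mean only through the stabilized libraries. Both were higher in the stabilized libraries, with no overlap between these and the other 2. Pdgfb, whose promoter drives the Cre, followed the same order with 1.14, 1.11, 2.57 and 2.92 FPKM. Cldn5, a tight junction gene of barrier vessels, was at 6.91 FPKM in WT, 0.675 in NdpKO, 19.4 in the stabilized and 16.7 in the stabilized knockout library. Cldn5 thus differed by Ndp genotype as well, with NdpKO at 0.0977 times WT (0.0589 to 0.162), while the stabilized knockout library had 0.862 times the level of the stabilized one (0.658 to 1.13).

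Across the 7 genes other than Ndp the median log2 ratio was 0.04 in the stabilized library against WT and 0.12 in the stabilized knockout library against NdpKO, beside -0.02 and 0.03 over all tested genes. The 7 genes ran from -0.17 to 0.16 and from -0.06 to 0.34, and the 11 endothelial markers from -0.36 to 1.39 and from -0.30 to 1.55, so the ranges overlap. The part that each retinal cell type has in the level of these genes was not tested.

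**Figure D4:**
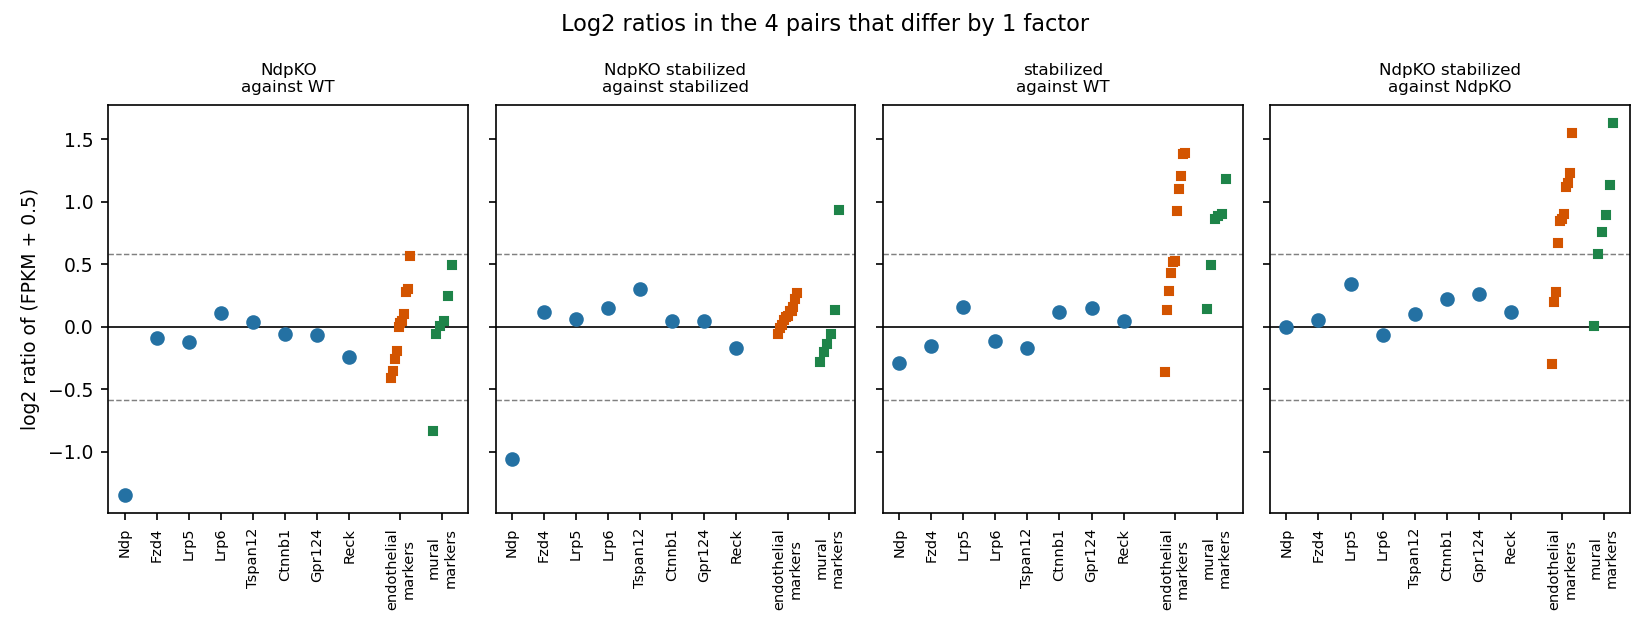
Log2 ratios of FPKM plus 0.5 are shown for 4 pairs of libraries, which differ by Ndp genotype and sex or by stabilization and Cre. Blue circles mark the 8 genes, orange squares 11 endothelial markers and green squares 6 mural markers, with dashed lines at 1.5-fold. Ndp is at -1.34 and -1.06 in the pairs that differ by Ndp genotype, and the other 7 genes stay between the dashed lines in all 4 panels, while most vessel markers lie above them or near them in the 2 stabilization pairs.

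The remaining genes of the pathway were read from 11 lists that hold its ligands, modulators, receptors and their relatives, destruction complex, and nuclear and adhesion partners of beta-catenin. Of 139 genes 98 were tested. Between NdpKO and WT 0 were higher and 1 lower, and between the stabilized knockout and stabilized libraries 0 were apart in either direction. Over all tested genes 2.18% and 1.67% were apart in these pairs. For stabilization 5 were higher and 0 lower in each pair, which is 5.10% of the 98 beside 3.38% and 2.68% of all tested genes in either direction. In each pair 2 of the 5, Tcf7 and Sfrp4, reached the minimum mean only through the stabilized libraries, so they had to differ there. Against WT the stabilized knockout library had 3 higher and 0 lower. The median log2 ratio of the 98 genes was 0.08 in the first stabilization pair and 0.10 in the second.

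Of the destruction complex and its regulators, which mark beta-catenin for breakdown, 20 of 20 were tested and 0 were apart in all 5 comparisons. Over all tested genes 1.67% to 3.38% were apart, so this count is near background and says nothing particular about these genes. Apc2 was poorly measured, at 16.3 FPKM in WT (0 to 40.4) and with a lower bound of 0 in every library. Axin2, a scaffold of the complex and a common target of beta-catenin signalling, had 5.37 FPKM in WT (4.43 to 6.31), 5.30 in NdpKO (4.36 to 6.25), 5.35 in the stabilized library (4.40 to 6.30) and 5.80 in the stabilized knockout library (4.80 to 6.80). The 4 intervals of Axin2 overlapped throughout. Csnk1a1, the kinase that primes beta-catenin, was the most abundant member, at 104 to 109 FPKM.

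Among 11 tested nuclear partners Tcf7 was the one apart. Tcf7 encodes TCF1, a DNA-binding partner of beta-catenin. It was at 0.707 FPKM in WT (0.455 to 0.960), 0.591 in NdpKO (0.369 to 0.814), 1.54 in the stabilized library (1.08 to 2.01) and 1.28 in the stabilized knockout library (0.882 to 1.68). Both stabilized libraries were higher with intervals apart, at log2 ratios of 0.76 and 0.71, and neither ratio reached 1.5-fold with a pseudocount of 1. Ctnnbip1, an inhibitor of the contact between beta-catenin and TCF, was the most abundant of the list, at 22.6 to 25.7 FPKM.

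Of the adhesion partners 9 of 12 were tested. Cdh5, the cadherin of endothelial junctions, had 0.754 FPKM in WT, 1.36 in NdpKO, 2.79 in the stabilized and 2.98 in the stabilized knockout library. It was higher in both stabilization pairs, at log2 ratios of 1.39 and 0.90, and it also counts among the endothelial markers above. Between NdpKO and WT its log2 ratio of 0.57 missed 1.5-fold but passed it with a pseudocount of 0.1, after re-centring and after rescaling to a common total. Jup, or plakoglobin, the nearest relative of beta-catenin, had 4.18 FPKM in WT, 5.14 in NdpKO, 6.66 in the stabilized and 6.61 in the stabilized knockout library. Its log2 ratio of 0.61 for the stabilized library against WT passed 1.5-fold but not with a pseudocount of 1. Ctnnb1 exceeded Jup 34.4-fold in WT and 26.9-fold, 23.4-fold and 24.4-fold in the other libraries. Cdh2, the neural cadherin, was the most abundant of the list at 42.5 to 52.9 FPKM.

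Among secreted modulators 7 of 17 were tested and Sfrp4, a soluble Frizzled-related protein, was the one apart. It had 0.701 FPKM in WT, 0.541 in NdpKO, 1.33 in the stabilized and 1.45 in the stabilized knockout library, log2 ratios of 0.60 and 0.90 in the stabilization pairs. Its ratio for the stabilized library against WT was not past 1.5-fold with a pseudocount of 1, and those intervals overlapped. Dkk3 was the most abundant modulator, at 97.5 to 116 FPKM. In the list on receptor turnover Apcdd1, a membrane inhibitor of WNT signals, was apart once, with 9.27 FPKM in NdpKO and 16.5 in the stabilized knockout library, a log2 ratio of 0.80. Its levels in WT and the stabilized library were 12.1 and 14.5 FPKM. Lgr4, a receptor for R-spondins and the most abundant of that list, had 12.7 to 14.1 FPKM. In the list on ligand secretion and co-receptor folding 3 of 3 were tested and none was apart, and Porcn, the enzyme that adds lipid to WNT proteins, had 25.6 to 28.4 FPKM.

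Genes with a profile like that of Ndp over the 4 libraries were found by the distance between centred log2 values of FPKM plus 0.5. Among the nearest 5 were Ipw at 0.38, Pisd-ps1 at 0.57, Eif2s3x at 0.64 and Pisd-ps2 at 0.70. Eif2s3x, a translation factor gene, lies on the X chromosome like Ndp and has a copy on the Y, and it had 71.4 FPKM in WT, 44.7 in NdpKO, 66.8 in the stabilized and 47.7 in the stabilized knockout library. Ipw, an imprinted non-coding RNA of chromosome 7, had 60.3 FPKM in WT, 22.4 in NdpKO, 34.9 in the stabilized and 21.7 in the stabilized knockout library. Pisd-ps1 and Pisd-ps2 are pseudogenes of 1 family with nearly identical copies, so their values are uncertain. The 4 values behind each profile come from libraries in which Ndp genotype and sex move together.

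As a measure of the X chromosome around Ndp, 436 of its genes were tested, Ndp included. Their median log2 ratio was -0.05 between NdpKO and WT and 0.05 between the stabilized knockout and stabilized libraries. Genes of other chromosomes had medians of -0.02 and 0.04. In these pairs 8 and 6 X genes were 1.5-fold lower and 3 and 4 higher. Ndp and Xist were among the lower ones in both pairs, and Eif2s3x in the first. Both pairs set male pools against female pools, so these counts are not specific to Ndp genotype. The 2.52% and 2.29% apart in either direction are near the 2.18% and 1.67% of all tested genes.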

How the data were processed

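Whole-retina RNA of 4 genotypes was sequenced as 1 pooled TruSeq library each, per the labels' protocols. For each gene and library the table deposited by the authors holds an FPKM, its bounds and a status. The submitters' processing notes name TopHat, Cuffdiff and mm10. Versions, gene annotation, strand use and interval level were not given in the sources used here. Columns were matched to libraries by the sample number in the description, and groups came from the labels.

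A gene was tested where its status was OK in all libraries and its mean reached 1 FPKM. Log2 ratios used a pseudocount of 0.5. Comparisons set 1 library against 1, so none was tested, and an additive fit of genotype and stabilization was not run. Relative depth is approximate: the commonest squared ratio of value to SD among low genes was read as 1 fragment, taking the distance to the upper bound as 2 SD, an assumption. The share of low values that came within 0.02 of a whole number of fragments was 47.1% to 50.0%, so no counts were recovered. GENCODE M21, of the same build, gave positions and transcripts, and the exon sequence was read from its transcripts. In GENCODE Tspan12, Ctnnb1, Gpr124 and Reck overlap other genes, whereas in the deposited table no other gene's locus overlaps them.

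The 8 genes and the 18 lists were chosen with earlier results of these data known. Named were the 8 genes, all Frizzled genes, Gpr123 and Gpr125, from each pathway list the most abundant member and up to 3 per direction at least 1.5-fold apart, the 5 genes nearest to Ndp without short RNA genes and provisional symbols, and Pecam1, Cdh5, Tie1, Cldn5, Rgs5, Rlbp1, Pdgfb, Axin2, Jup, Lgr4, Xist and Ddx3y. Wnt7a, Wnt7b, Kdr, Emcn, Acta2, Notch3, Pdgfrb and Gfap were chosen outside this rule with their values known. One of the genes nearest to Ndp is not reported here. The calls were tried on simulated data, with changes larger than 1.5-fold placed in genes with a mean of at least 5 FPKM. That trial does not cover smaller changes or lower genes, Ndp and Fzd4 among them. Python 3.11.15, numpy 2.4.6, pandas 2.3.3, matplotlib 3.10.9 and Biopython 1.88 were used.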

Additional observations from a re-analysis of the deposited data

Results flagged for a closer look

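In 6 cases the log2 ratio of a gene had opposite signs in the pairs of libraries that differ by the same factor. Every ratio was below 1.5-fold with overlapping intervals, and none of these differences was tested. For Ndp genotype, Fzd4 had -0.09 without and 0.12 with stabilized beta-catenin, a difference of 0.21. Lrp5 had -0.12 and 0.06, a difference of 0.18. Ctnnb1 had -0.05 and 0.05, a difference of 0.10, and Gpr124 -0.06 and 0.05, a difference of 0.11. The positive values of Lrp5, Ctnnb1 and Gpr124 became -0.00, -0.03 and -0.02 after rescaling to a common total, so their signs then matched. For stabilization, Fzd4 had -0.15 with Ndp intact and 0.06 without it, a difference of 0.21, and Tspan12 had -0.17 and 0.10, a difference of 0.27.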

How the results depend on the processing

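Other settings tried were a pseudocount of 0.1 or 1, a minimum mean of 5 FPKM or none, re-centring on the median ratio, rescaling to a common total (TPM), all statuses, a 2-fold threshold and non-overlapping intervals in its place. Ndp kept its direction and stayed apart wherever it was tested, with log2 ratios of -1.66 to -1.09 for NdpKO against WT, -1.34 to -0.84 for the stabilized knockout against the stabilized library, and -1.67 to -1.09 for the stabilized knockout library against WT. With a minimum mean of 5 FPKM, 0 of the 8 genes were apart in these 3 comparisons and 0 in both Ndp pairs, because Ndp, with a mean of 1.77 FPKM, was then not tested. No other of the 8 genes became apart under any of these settings.

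The number of all genes apart depended more on the setting. It ranged from 100 to 359 for NdpKO against WT (287 as reported), 69 to 311 for the stabilized knockout against the stabilized library (220), 187 to 579 for the stabilized library against WT (445), 165 to 544 for the stabilized knockout library against NdpKO (352) and 182 to 500 for it against WT (377). In both Ndp pairs it ranged from 25 to 81 (70) and in both stabilization pairs from 55 to 189 (136). Leaving out 246 short RNA genes, chosen after seeing the data, gave 115, 100, 290, 220 and 230 genes in the 5 comparisons. The deposited bounds were widest for Ndp and Fzd4 among the 8 genes, up to 35.9% and 26.1% from their values. No paired analysis was possible because each genotype has a single library.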
